A study of Mus musculus with 12 samples.

Results

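The extracellular matrix genes of NIH-3T3 fibroblasts examined here are a list of 52 genes chosen by name and function: collagens, fibronectin and elastic fibre proteins, matricellular proteins, proteoglycans, laminins and nidogens, enzymes that process and crosslink collagen, and matrix proteases with their inhibitors. The rule uses names alone, though the list was drawn up with earlier results of these data known. Of the 52, 51 were among the 17419 genes of the table, and Fbn2 was not analysed here. NIH-3T3 is an established mouse line of fibroblasts, labelled as wild type in all groups. The cells were given 800 µM 4-thiouridine (4sU), a uridine analogue that is built into RNA as it is made, for 15, 30, 60, 90 or 120 min, or no 4sU (no4sU). Each of these 6 groups had 2 libraries, replicates A and B, hence 12 in all, 10 of them labelled. After iodoacetamide treatment the incorporated 4sU is read as C, which lets newly made transcripts be told from older ones and gives, per gene, the new-to-total ratio (NTR, a fraction from 0 to 1). The stated aim of the series is to learn how labelling time affects quantification.

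Fibroblasts secrete most of the interstitial matrix of connective tissue. Fibrillar procollagens are hydroxylated, folded with the chaperone Hsp47 (Serpinh1), exported, trimmed by proteases such as Bmp1 and crosslinked by lysyl oxidases, while fibronectin and fibrillin networks serve as scaffolds for other matrix proteins. Membrane-bound and secreted metalloproteinases (Mmp14, Mmp2) and aggrecan-cleaving Adamts enzymes take the matrix apart, and the Timp proteins inhibit them. Structural collagen mRNAs are known to be long-lived in fibroblasts, whereas several matricellular and protease genes belong to the fast serum-responsive class.

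Libraries held between 9917026 and 13739380 counted reads, and the matrix genes took 2.79% to 3.25% of them. Of 11 fibroblast markers in the table, 10 were expressed and Fap was near 0 (0.0125 CPM, the read count scaled to library size, on average over the 12 libraries). Their summed level lay between 7878 and 9107 CPM, against at most 0.904 CPM for epithelial, 2.40 for endothelial and 0.450 for muscle and adipocyte markers. Immune markers summed to 6.63 to 10.6 CPM, of which Cd68 and Csf1r made up nearly all and Ptprc had 0.0772 CPM. Cd68 was itself called higher with labelling time in the trend test described below for the matrix genes (0.25 per hour on the log2 scale, adjusted p = 0.0244), and Csf1r was at 0.31 (adjusted p = 0.0637). Their part in the matrix results was not tested. The unlabelled replicates stood apart from each other, with Fn1 at 5756 and 6559.7 CPM and Col1a1 at 1410.3 and 1149. The common biological coefficient of variation of the count model was 4.44% over all 12 libraries and 2.7% over the 10 labelled ones.

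Most of the list was highly expressed. Levels between genes are given per length, as CPM per kilobase averaged over the 12 libraries. Fn1 (fibronectin, chr1:71585520-71653200, minus strand, GENCODE M21 on GRCm38) led with 853, followed by the proteoglycan biglycan (Bgn) with 729, the inhibitor Timp2 with 417, fibulin-2 (Fbln2) with 414 and the collagen I chain Col1a2 with 377. Its partner chain Col1a1 (chr11:94936224-94953042, plus strand) was at 228. Among the proteases Mmp2 was at 287 and Mmp14 at 109.9, whereas Adamts1 was at 15.99 and Adamts5 at 3.95. A mean count of at least 100 was reached by 46 members, of which 18 were in the highest 10% of all genes with that mean count. The other 5 with a row were scarce. The elastin gene Eln, Fbln1 and Loxl2 had mean counts of 0.0833, 0.417 and 0.779 reads, Lum had 18.7 and Nid2 26.9. Eln, Fbln1 and Loxl2 were therefore too low for the count test, which covered 48 members, and all values of NTR below are for the 46.

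The matrix transcripts had a low share of new RNA, with few exceptions. At 120 min the median NTR over the 46 members was 0.145 and 0.139 in the 2 libraries, against 0.358 and 0.350 over all 9065 genes averaging 100 or more reads. The NTR of 43 members was below the median of all genes, and 20 were in the lowest 10% of genes. Decorin (Dcn), a collagen-binding proteoglycan, had the least new RNA, with an NTR of 0.0403 and 0.0270 at 120 min. Biglycan had 0.0475 and 0.0456, periostin (Postn) 0.0488 and 0.0517 and fibulin-5 (Fbln5) 0.0567 and 0.0554. The rank of Dcn did not hold at 60 and 90 min. Its mean NTR was 0.03905 at 60 min, 0.0407 at 90 min and 0.03365 at 120 min. At 60 and 90 min Bgn had means of 0.0257 and 0.03205 and Postn 0.0129 and 0.02765. The members above the median of all genes at 120 min were thrombospondin-1 (Thbs1), a secreted regulator of adhesion and TGF-beta activation, and the proteases Adamts5 and Adamts1.

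**Figure D1:**
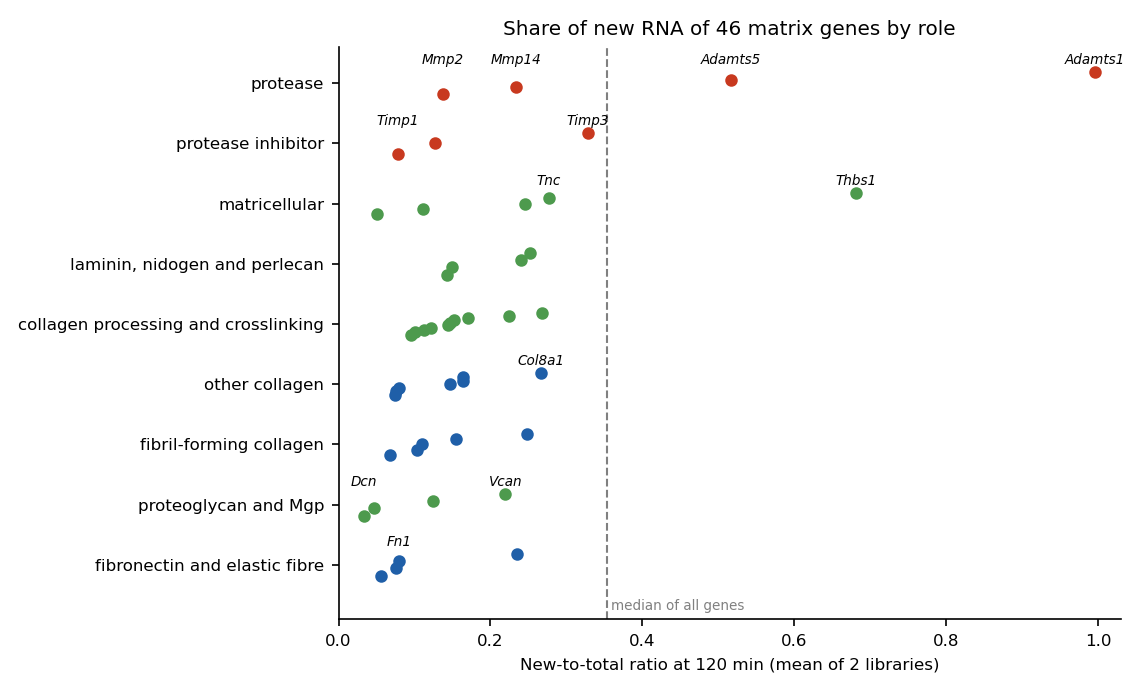
New-to-total ratio at 120 min (horizontal axis, fraction, mean of 2 libraries) of the 46 matrix genes averaging 100 or more reads, 1 point per gene, in rows by role. Blue marks collagens and fibril genes, red proteases and inhibitors, green the rest, and the dashed line is the median of all 9065 genes (0.354); only Thbs1, Adamts5 and Adamts1 lie to its right.

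Structural genes and the genes of matrix breakdown were compared over the labelling course. The 16 measured collagens and fibril genes had a median NTR of 0.0503 ± 0.00361 (SD, n = 2) after 60 min of labelling, 0.0770 ± 0.00187 after 90 min and 0.107 ± 0.00435 after 120 min. The 7 proteases and inhibitors had 0.117 ± 0.0111, 0.169 ± 0.00962 and 0.234 ± 0.0205 at the same times. Their median was the higher in 8 of the 8 libraries from 30 min on, and in 0 of the 2 libraries at 15 min, where NTR was close to 0 for both classes. Genes are not replicates, so this is a description without a test. The class of 7 was itself uneven. Its 3 inhibitors had a median of 0.127 ± 0.00240 at 120 min, near that of the collagens and fibrils, and its 4 proteases one of 0.375 ± 0.0117. With only the 4 of the 7 genes that reached a mean count of 1000, which leaves out Adamts1, Adamts5 and Timp3, the median was 0.132.

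Within the proteases the order was the same in both libraries at 60, 90 and 120 min. Gelatinase A (Mmp2) had NTR values of 0.00930 and 0.00190 (15 min), 0.0165 and 0.0217 (30 min), 0.0582 and 0.0650 (60 min), 0.109 and 0.0999 (90 min) and 0.138 and 0.137 (120 min). Mmp14, the membrane protease that activates pro-Mmp2, had 0.0117 and 0.00780 (15 min), 0.0399 and 0.0520 (30 min), 0.110 and 0.125 (60 min), 0.176 and 0.162 (90 min) and 0.248 and 0.219 (120 min). Adamts5, an aggrecanase, had 0 and 0 (15 min), 0.0725 and 0.0629 (30 min), 0.232 and 0.262 (60 min), 0.371 and 0.379 (90 min) and 0.519 and 0.514 (120 min). The NTR of Adamts1, which cleaves versican and aggrecan, was 0.0636 and 0.0235 (15 min), 0.280 and 0.208 (30 min), 0.586 and 0.567 (60 min), 0.791 and 0.736 (90 min) and 0.997 and 0.996 (120 min). At 120 min the authors' 90% intervals of Adamts1 (0.941 to 0.997 and 0.941 to 0.997) lay apart from those of Adamts5 (0.464 to 0.575 and 0.462 to 0.569), and the Adamts1 estimate was at the top of its range, so that nearly all of its reads were assigned to new RNA. The 2 genes are neighbours on chromosome 16, Adamts1 at chr16:85793827-85803113, minus strand, and Adamts5 at chr16:85856173-85901828, minus strand.

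Among the inhibitors, Timp1 had the least new RNA, with 0.0827 and 0.0741 at 120 min. Timp2, which both inhibits Mmp2 and helps to activate it, had 0.129 and 0.125. Timp3, the inhibitor that binds to the matrix, lay near the median of all genes, with 0.172 and 0.164 (60 min), 0.250 and 0.236 (90 min) and 0.335 and 0.320 (120 min). Of the structural genes, Col8a1 came nearest to Timp3, with 0.279 and 0.254 at 120 min. The collagen I chains were alike, at 0.108 and 0.112 for Col1a1 and 0.0995 and 0.108 for Col1a2, as were the collagen IV chains of the basement membrane, at 0.160 and 0.167 for Col4a1 and 0.170 and 0.159 for Col4a2. Chains of collagen V were not alike. Col5a2 had 0.0665 and 0.0698 and Col5a1 0.242 and 0.253. In collagen VI, Col6a1 had 0.0884 and 0.0710, Col6a2 0.0730 and 0.0746 and Col6a3 0.157 and 0.136.

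**Figure D2:**
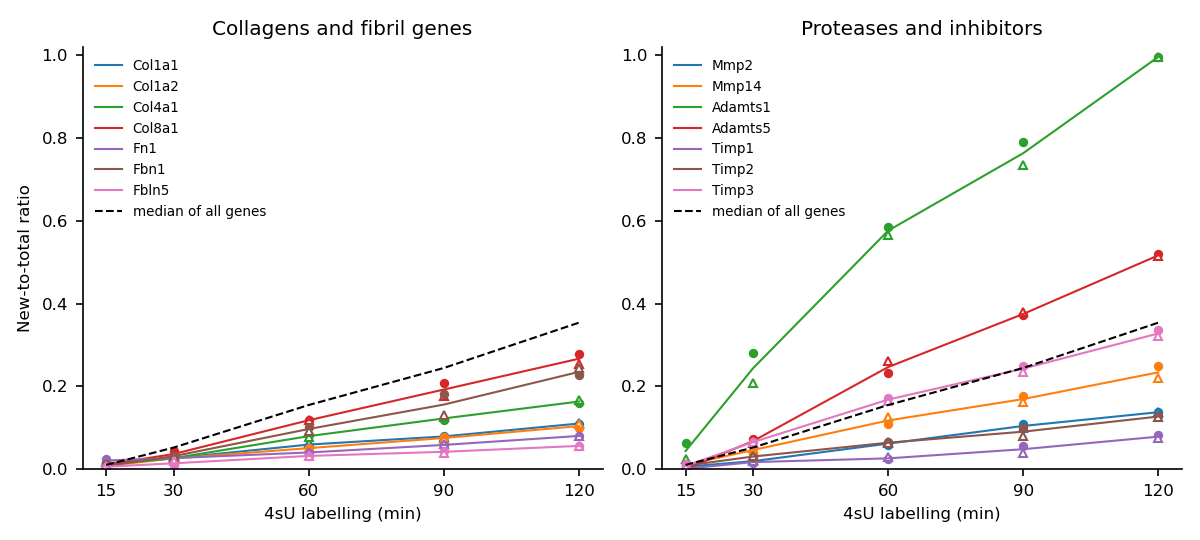
New-to-total ratio (vertical axis, fraction) against labelling time in min for 7 collagen and fibril genes (left) and 7 proteases and inhibitors (right). Filled circles are replicate A, open triangles replicate B, solid lines their mean, and the dashed line is the median of all genes; every structural gene shown stays below it from 60 min on, while Adamts1 and Adamts5 rise above it.

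AU-rich stretches in the 3′ UTR are a known feature of short-lived mRNAs, and 1 form, TATTTAT as written in DNA letters, was searched on the transcript strand in the annotated 3′ UTR of each gene's longest coding transcript (GENCODE M21, GRCm38). It was present in 29.7% of 8829 genes averaging 100 or more reads and having a 3′ UTR, and in 16 of 45 members. All 3 members with an NTR above 0.5 held it, against 40.6% of all genes in that range. It was in 7 of 30 members with an NTR below 0.2, where 15.8% of all genes held it. Between 0.2 and 0.5 it was in 6 of 12 members and 28.9% of all genes. A longer 3′ UTR offers more positions for a match. The median 3′ UTR was 2104 bases for those 3 members and 843.5 for those 30, against 1500 and 559 for all genes in the same ranges. A match is a description of the letters and not of a working site. The transcript searched was shorter than the deposited length for some members of low NTR, such as Dcn (1758 against 4692 bases) and Fbln5 (2371 against 5829). For Adamts1, Thbs1 and Adamts5 the 2 lengths were equal. Matches may thus have been missed in members of low NTR. Adamts1 held 3 matches, Thbs1 3, Adamts5 1 and Plod2, a collagen lysyl hydroxylase, 2. The most matches, 5, were in Thbs2, which did not pass the trend test and had an NTR of 0.252 and 0.240 at 120 min. Matches 4 and 5 of Thbs2 overlap, starting at bases 1899 and 1903 of its 3′ UTR. Of the 7 genes with a match and an NTR below 0.2, Col12a1 and Col5a2 held 2 each and Fn1 1. Fn1 is included below to show that a gene of low NTR can carry it too. Windows around its match and those of the members that fell with labelling are given 5′ to 3′ with the heptamer in capitals.
Adamts1 match 1 (chr16:85794768-85794792, minus strand): caattcatcTATTTATaaaatgtac
Adamts1 match 2 (chr16:85794292-85794316, minus strand): ataataacaTATTTATttttataca
Adamts1 match 3 (chr16:85794212-85794236, minus strand): aaaatagagTATTTATacaatatat
Thbs1 match 1 (chr2:118126033-118126057, plus strand): aatgtaataTATTTATtttgttccc
Thbs1 match 2 (chr2:118126157-118126181, plus strand): aatacagatTATTTATtaaccctgt
Thbs1 match 3 (chr2:118127117-118127133, plus strand): ggaagtttaTATTTATa
Adamts5 match 1 (chr16:85859715-85859739, minus strand): tgatgaaatTATTTATtcttattta
Plod2 match 1 (chr9:92607454-92607478, plus strand): gaaagttggTATTTATttctgtgct
Plod2 match 2 (chr9:92607583-92607607, plus strand): agaaggtttTATTTATcggtggggg
Fn1 match 1 (chr1:71585682-71585706, minus strand): cctgtttgtTATTTATcaatttttc

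If levels are steady, NTR converts to an apparent half-life, ln 2 times the labelling time over -ln(1 - NTR), which should not depend on the time. At 120 min it was 725 and 701 min in A and B for Col1a1, 1007 and 985 min for Fn1, 1709 and 1782 min for Bgn, 560.1 and 565 min for Mmp2, 71.2 and 74.1 min for Thbs1 and 114 and 115 min for Adamts5. For Adamts1 the NTR was too near 1 for an estimate at 120 min, and at 60 min it was 47.2 and 49.8 min. Every gene named here was called as changing in the trend test described below, so steady levels cannot be assumed for them. The estimates also moved with labelling time. From the 30, 60 and 120 min libraries, mean half-lives were 298, 148 and 114 min for Adamts5 and 127, 116 and 72.7 min for Thbs1. Over the 36 members with an NTR between 0.01 and 0.99 in all 8 libraries from 30 min on, the median was 799 ± 61.1 min (SD, n = 2) when taken from the 30 min libraries, 526 ± 5.80 from those of 60 min, 532 ± 15.6 from those of 90 min and 501 ± 27.0 from those of 120 min. Over the 7830 genes measured in the same way it was 375 ± 10.1 min from the 30 min libraries and 185 ± 2.98 min from those of 120 min.

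Not all members shortened. In 25 of the 36, both libraries at 120 min gave a shorter half-life than both at 30 min (82.2% of all genes), and in 3 a longer one (3.64% of all genes): Fn1, Bgn and Col6a2. Fn1 gave 412 and 621 min when labelled for 15 min, 1027 and 1003 min for 60 min and 1007 and 985 min for 120 min, so that its NTR of 0.0249 and 0.0166 at 15 min was already large for its later course. Against 60 min, 22 members were shorter at 120 min (66.8% of all genes) and 3 longer (5.1%), which were Lox, P4ha1 and P4ha2. Between 60 and 120 min the apparent turnover rate was higher in 3 of 36 members by limma's test (Hspg2 at 0.84 on the log2 scale, adjusted p = 0.0294, Tnc at 0.99, adjusted p = 0.0311, and Thbs1 at 0.67, adjusted p = 0.0466), where 13.6% of 7830 genes were called higher. The median over all genes tested rose by 0.41. Relative to the median gene of each library limma called 0 of all 7830 genes, hence 0 members, with 1375 genes and 8 members at an unadjusted p below 0.05. Leaving out any 1 of the 4 libraries also left 0 of 7830, with 1528 to 2044 genes and 5 members unadjusted.

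The read level of most matrix genes rose with labelling time. Over the 10 labelled libraries, edgeR's quasi-likelihood test of a linear trend called 32 of 48 members higher with time, where 18.3% of 11526 genes were called higher, and 4 lower, where 19.5% were. The median change of the 48 was 0.10 per hour on the log2 scale, and that of all genes was 0.00. CPM measures a gene relative to the others, so a higher CPM can come with a constant amount of RNA if other genes fall. Over the libraries at 15, 30 and 60 min alone 149 of 11442 genes passed, 28 rising and 121 falling, and 3 members were among them, Thbs1 falling and Col3a1 and Tnc rising. In that fit 5 members that rose over all labelled libraries had values below 0 that were not called, -0.0138 for Col1a1, -0.0158 for Postn, -0.0132 for Serpinh1, -0.0491 for Timp2 and -0.0282 for Mgp. Labels do not say whether replicates A and B came from separate cultures, so the p-values measure the spread between these libraries only.

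Fibronectin and elastic fibre genes rose in 3 of 4 measured cases, where 18.3% of all 11526 genes rose. Fn1 was at 5756 and 6559.7 CPM without 4sU, 6642 and 6609.7 (15 min), 7062 and 6711 (30 min), 7007 and 7210.0 (60 min), 7588 and 7645 (90 min) and 8327 and 8012 (120 min). Its lowest libraries were unlabelled or at 15 min and its highest were both at 120 min, and the trend was 0.17 ± 0.0164 (SE, adjusted p = 2.5e-10). Fbln5, which helps to assemble elastic fibres, was at 440.4 and 409 CPM without 4sU, 431 and 415 (15 min), 438 and 430.3 (30 min), 434 and 444 (60 min), 472 and 475 (90 min) and 497 and 506 (120 min), a trend of 0.14 ± 0.0186 (SE, adjusted p = 1.7e-07). Fbln2 was similar at 0.13 per hour (adjusted p = 1.3e-07). Fibrillin-1 (Fbn1) was not called, at 0.04 per hour (adjusted p = 0.2).

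Of the 12 collagens 9 rose and 0 fell, where 18.3% and 19.5% of all 11526 genes did. Col12a1, a fibril-associated collagen, had the largest trend of all members at 0.24 ± 0.0353 (SE, adjusted p = 6.2e-07), with 34.7 and 43.4 CPM without 4sU, 38.2 and 36.1 (15 min), 40.3 and 39.04 (30 min), 45.6 and 43.7 (60 min), 47.8 and 46.7 (90 min) and 53.1 and 47.9 (120 min). All labelled libraries from 60 min on were above those at 15 and 30 min. Col6a1 was at 251 and 251 CPM without 4sU, 233 and 247 (15 min), 265 and 249 (30 min), 264 and 261 (60 min), 261 and 265 (90 min) and 309 and 288 (120 min), and Col6a2, its neighbour on chromosome 10 and partner in microfibrils, at 123 and 118 CPM without 4sU, 116 and 117 (15 min), 133 and 121 (30 min), 124 and 131 (60 min), 132 and 128 (90 min) and 150.4 and 138 (120 min). Their trends were 0.15 ± 0.0231 (SE, adjusted p = 3.1e-06) and 0.14 ± 0.0266 (SE, adjusted p = 5.5e-05). The basement membrane chains Col4a1 and Col4a2 rose by 0.14 per hour (adjusted p = 1.3e-07) and 0.13 per hour (adjusted p = 2.1e-06).

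The fibril-forming chains had trends between 0.02 and 0.09 per hour, and 3 of 5 were called (18.3% of all 11526 genes were called higher). Col1a1 was at 1410.3 and 1149 CPM without 4sU, 1343 and 1268 (15 min), 1425 and 1310.2 (30 min), 1299 and 1327 (60 min), 1383 and 1409 (90 min) and 1554 and 1372 (120 min). Its 120 min libraries lay above both 15 min libraries but the lower of them was below the no4sU replicate A, and the trend was 0.08 ± 0.0220 (SE, adjusted p = 0.00453). Col1a2 was at 2014 and 1847 CPM without 4sU, 1931 and 1937 (15 min), 2108 and 1930.3 (30 min), 1946 and 2096 (60 min), 2022 and 2093 (90 min) and 2248 and 2042 (120 min), a trend of 0.07 ± 0.0202 (SE, adjusted p = 0.00587). Both calls rested on 120 min replicate A. Without it the trends were 0.04 per hour for each, with adjusted p = 0.208 for Col1a1 and 0.158 for Col1a2, and with scaling by library size alone they were 0.04 and 0.03 per hour (adjusted p = 0.114 and 0.171). Col3a1 was not called, at 89.00 and 84.8 CPM without 4sU, 81.2 and 78.3 (15 min), 98.5 and 83.1 (30 min), 91.9 and 99.2 (60 min), 92.8 and 88.8 (90 min) and 102 and 86.3 (120 min) with a trend of 0.08 ± 0.0365 (SE, adjusted p = 0.0636). The remaining chains of this type were at 0.09 per hour (adjusted p = 0.000299) for Col5a2 and 0.02 per hour (adjusted p = 0.51) for Col5a1.

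Matricellular proteins, which bind cells and matrix without building fibres, went both ways. Sparc, a collagen-binding protein, was at 772 and 724 CPM without 4sU, 742 and 751 (15 min), 755 and 759 (30 min), 765 and 784 (60 min), 807 and 817 (90 min) and 865 and 849 (120 min), and its trend was 0.11 ± 0.0171 (SE, adjusted p = 1.7e-06). Thbs1 (chr2:118111876-118127133, plus strand) was at 1027 and 1147 CPM without 4sU, 1235 and 1268 (15 min), 1199 and 1164 (30 min), 1099 and 1156 (60 min), 1137 and 1170.1 (90 min) and 1019.8 and 972 (120 min). Its 2 lowest labelled libraries were those at 120 min, and its trend was -0.15 ± 0.0208 (SE, adjusted p = 1.8e-07). Its no4sU replicate A lay just above the 120 min libraries and replicate B among those of 60 and 90 min, and against no4sU its change at 120 min was -0.13 and not called (adjusted p = 0.118). Thbs2, its closest relative on the list, was not called, at 0.05 per hour (adjusted p = 0.144), and Tnc rose by 0.12 per hour (adjusted p = 4.8e-05). Postn was at 20.03 and 19.7 CPM without 4sU, 18.5 and 20.3 (15 min), 20.4 and 18.6 (30 min), 20.3 and 18.6 (60 min), 20.2 and 20.9 (90 min) and 21.9 and 23.4 (120 min), with a trend of 0.12 ± 0.0492 (SE, adjusted p = 0.0444) that was lost without 15 min replicate A, 30 min replicate B or either 120 min library (0.08 to 0.13, adjusted p = 0.0799 to 0.30) and by DESeq2 (adjusted p = 0.132).

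Proteoglycans and Mgp rose in 4 of 5 cases, where 18.3% of all 11526 genes rose. Bgn was at 1887 and 1673 CPM without 4sU, 1830.0 and 1802 (15 min), 1883 and 1807 (30 min), 2003 and 1907 (60 min), 2132 and 2021 (90 min) and 2251 and 2129 (120 min), rising by 0.16 ± 0.0175 (SE, adjusted p = 3.5e-09). Dcn was at 75.2 and 81.1 CPM without 4sU, 76.4 and 73.9 (15 min), 82.04 and 75.6 (30 min), 76.03 and 89.4 (60 min), 76.3 and 75.2 (90 min) and 95.00 and 92.6 (120 min), with both 120 min libraries above all others. Its trend was 0.13 ± 0.0360 (SE, adjusted p = 0.00288), and without 120 min replicate A it was 0.10 (adjusted p = 0.0550). Matrix Gla protein (Mgp), an inhibitor of calcification, was at 14.4 and 14.03 CPM without 4sU, 12.8 and 12.9 (15 min), 12.6 and 14.7 (30 min), 12.6 and 13.1 (60 min), 14.1 and 14.7 (90 min) and 15.1 and 19.1 (120 min). The highest of these was 120 min replicate B, without which the trend of 0.22 ± 0.0624 (SE, adjusted p = 0.0043) became 0.11 (adjusted p = 0.241). Versican (Vcan), a large proteoglycan and a substrate of Adamts1, rose by 0.13 per hour (adjusted p = 1.9e-07). Lum was not called at 0.17 per hour (adjusted p = 0.441), on a mean count of 18.7.

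Of 10 measured genes of collagen processing and crosslinking, 8 rose and 1 fell (18.3% and 19.5% of all 11526 genes). Plod1, a lysyl hydroxylase, was at 64.2 and 60.9 CPM without 4sU, 57.1 and 63.01 (15 min), 68.9 and 65.1 (30 min), 68.1 and 64.4 (60 min), 69.9 and 64.9 (90 min) and 73.8 and 76.4 (120 min), a trend of 0.14 ± 0.0325 (SE, adjusted p = 0.000561). Bmp1, the procollagen C-proteinase, was at 73.8 and 77.4 CPM without 4sU, 64.7 and 68.5 (15 min), 73.4 and 71.4 (30 min), 76.2 and 71.5 (60 min), 70.8 and 79.7 (90 min) and 83.01 and 79.9 (120 min), a trend of 0.14 ± 0.0302 (SE, adjusted p = 0.000402). Plod3 rose by 0.13 per hour (adjusted p = 9.8e-06), Loxl3 by 0.12 per hour (adjusted p = 0.0043) and the collagen chaperone gene Serpinh1 by 0.07 per hour (adjusted p = 0.00504). For Serpinh1 the value was -0.0132 over 15 to 60 min alone, and its change from 15 to 120 min was not called (0.11, adjusted p = 0.175). Lox, the most abundant lysyl oxidase here, was at 0.06 per hour (adjusted p = 0.0237) and lost its call without any 1 of the 15 or 120 min libraries (0.04 to 0.06, adjusted p = 0.0502 to 0.20). Plod2 was at 31.98 ± 4.07 CPM (SD, n = 2) without 4sU, 37.4 and 38.1 at 15 min and 32.4 and 32.1 at 120 min. Against no4sU its change at 120 min was 0.0011 and not called (adjusted p = 0.994). Over the labelled libraries it fell by 0.11 per hour (adjusted p = 0.0416). It lost its call without either 15 min library, without 30 min replicate B, without 90 min replicate A or without either 120 min library (adjusted p = 0.0527 to 0.130).

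Laminins, nidogens and perlecan were mixed. Nid1, which links laminin to collagen IV, rose by 0.11 per hour (adjusted p = 3.4e-06) and the perlecan gene Hspg2 by 0.12 per hour (adjusted p = 2.5e-05). The laminin chains Lamb1 and Lamc1 were not called, at 0.02 per hour (adjusted p = 0.385) and -0.01 per hour (adjusted p = 0.68). Nid2, with a mean count of 26.9, was not called at -0.16 per hour (adjusted p = 0.378).

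Of the 7 proteases and inhibitors 3 rose and 2 fell, where 18.3% and 19.5% of all 11526 genes did. Of the 16 measured collagens and fibril genes 12 rose and 0 fell. The medians were 0.03 and 0.11 per hour. Adamts1 was at 82.3 and 84.96 CPM without 4sU, 85.7 and 85.7 (15 min), 84.4 and 79.98 (30 min), 78.5 and 76.9 (60 min), 75.99 and 71.1 (90 min) and 65.4 and 66.2 (120 min). Both 120 min libraries were below all others, and the trend was -0.21 ± 0.0277 (SE, adjusted p = 1.5e-07). Adamts5 was at 42.7 and 46.02 CPM without 4sU, 46.7 and 46.5 (15 min), 49.6 and 44.1 (30 min), 42.1 and 42.5 (60 min), 36.5 and 38.2 (90 min) and 38.8 and 38.3 (120 min), with all libraries at 90 and 120 min below all others, and its trend was -0.20 ± 0.0377 (SE, adjusted p = 6.0e-05). Mmp2 rose, at 873 and 824 CPM without 4sU, 834 and 834 (15 min), 882 and 849 (30 min), 861 and 909 (60 min), 877 and 919 (90 min) and 953 and 975 (120 min), with a trend of 0.10 ± 0.0185 (SE, adjusted p = 2.2e-05). Mmp14 was not called, with 354 and 341 CPM without 4sU, 353 and 349 (15 min), 374 and 344 (30 min), 335 and 368 (60 min), 335 and 367 (90 min) and 367 and 382 (120 min), at 0.03 per hour (adjusted p = 0.256).

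The inhibitor Timp1 was at 204 and 175 CPM without 4sU, 171 and 186 (15 min), 174 and 189.6 (30 min), 196 and 179.8 (60 min), 206 and 192 (90 min) and 206 and 209 (120 min), a trend of 0.13 ± 0.0239 (SE, adjusted p = 4.8e-05). Timp2 was at 1526 and 1393 CPM without 4sU, 1554 and 1524 (15 min), 1536 and 1510.5 (30 min), 1438 and 1569 (60 min), 1534 and 1658 (90 min) and 1658 and 1666 (120 min). Its trend was 0.07 ± 0.0199 (SE, adjusted p = 0.00682) and fell just short without 120 min replicate B (0.05, adjusted p = 0.0554). Timp3 showed no order by time, with 80.2 and 84.96 CPM without 4sU, 85.3 and 80.95 (15 min), 84.3 and 86.2 (30 min), 78.8 and 81.05 (60 min), 79.2 and 85.1 (90 min) and 84.97 and 82.8 (120 min), and its trend of -0.01 per hour (adjusted p = 0.872) was not called. With library size alone as the scaling, 25 members rose and 4 fell in place of 32 and 4. Over all 11526 genes that scaling gave 1172 rises and 3031 falls in place of 2111 and 2251, and moved the median gene to -0.03 per hour.

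**Figure D3:**
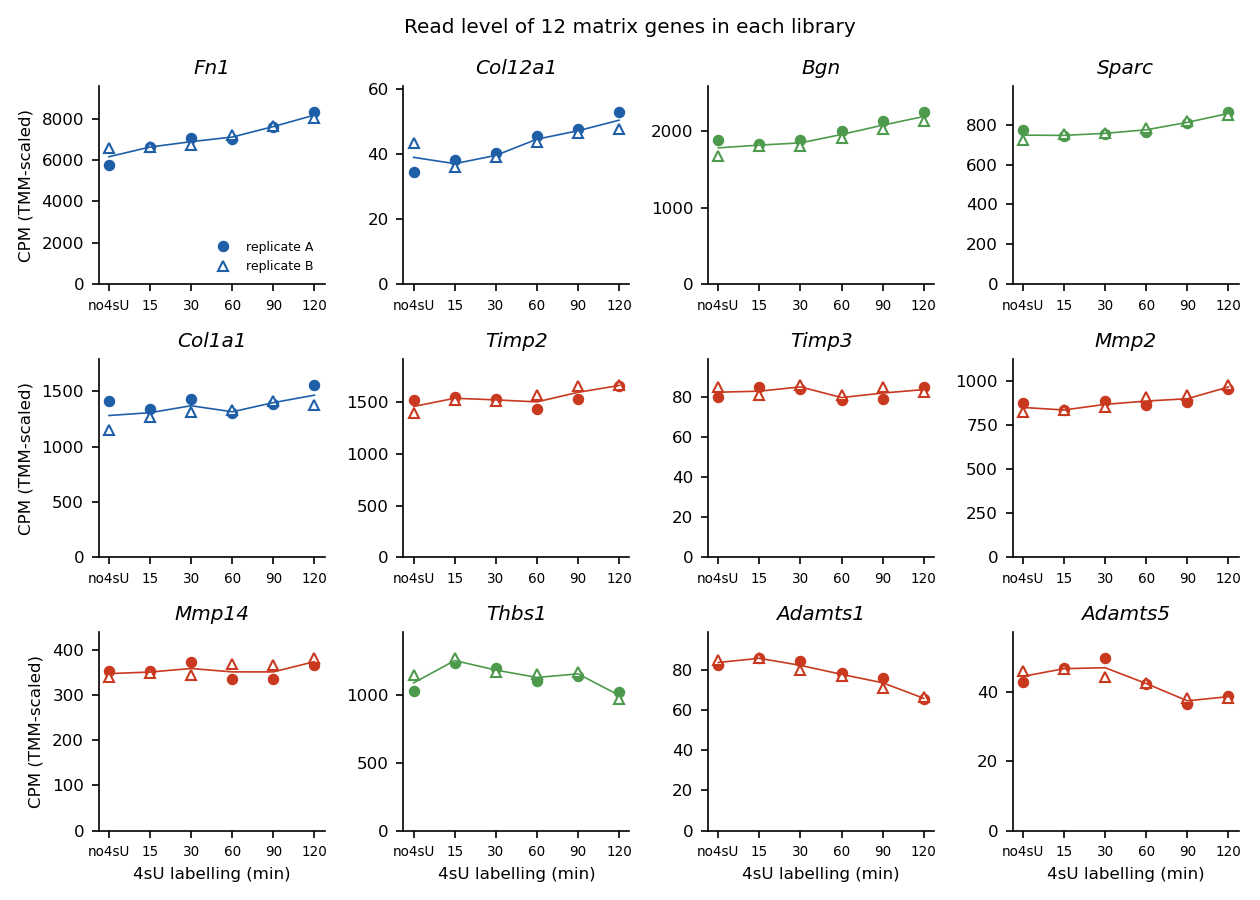
CPM (vertical axes from 0, TMM-scaled) of 12 matrix genes in each of the 12 libraries by labelling time in min. Filled circles are replicate A, open triangles replicate B and lines join the means; Fn1, Col12a1, Bgn and Sparc have their highest means at 120 min, while Thbs1, Adamts1 and Adamts5 end below their 15 min values.

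Direct contrasts between groups made fewer calls than the trend. For 120 against 15 min, 21 of 48 members were called higher (7.93% of 11564 genes) and 3 lower (11.3%). The 3 were Adamts1 at -0.38 ± 0.0641 (SE, adjusted p = 0.000618), Thbs1 at -0.33 ± 0.0542 (SE, adjusted p = 0.000494) and Adamts5 at -0.27 ± 0.0794 (SE, adjusted p = 0.0209). Among the called, the largest rises were those of Col12a1 at 0.44 ± 0.0929 (SE, adjusted p = 0.00296), Mgp at 0.42 ± 0.126 (SE, adjusted p = 0.0249), Plod1 at 0.32 ± 0.0720 (SE, adjusted p = 0.00412) and Dcn at 0.32 ± 0.0746 (SE, adjusted p = 0.00585). In 38 members both 120 min libraries lay above both 15 min libraries (33.4% of genes), and in 4 below (32.7%). Without any 1 of these 4 libraries 10 to 15 members were called, where all genes called numbered 657 to 1037 in place of 2228. A fit of the labelled libraries alone called 37 members and 3700 of 11526 genes.

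For 120 min against no4sU, 25 members were called higher (5.43% of 11564 genes) and 1, Adamts1, lower (8.78%). These contrasts share the 120 min libraries with the ones above. In 38 members both 120 min libraries lay above both unlabelled ones (25% of genes), and in 3 below (26.6%). Among the called, the largest rise was that of Fn1 at 0.41, followed by Vcan at 0.38 and Col12a1 at 0.36. The unlabelled libraries of these genes stood apart, at 6158 ± 568, 455 ± 92.6 and 39.1 ± 6.20 CPM (SD, n = 2), so their order is uncertain. In a fit of only these 2 groups, 171 of 11436 genes passed by edgeR, 19 rising and 152 falling, and 0 members, with 26 members at an unadjusted p below 0.05 (DESeq2, run on all libraries, called 25). Without 120 min replicate A 9 members and 452 genes passed, without replicate B 14 and 466, in place of 26 and 1643. Scaling by library size alone called 17 members, and over all genes 203 rises and 1684 falls.

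NTR gives the old part of each level, CPM times 1 - NTR, which should not exceed the level before labelling if the amount of RNA per read is constant. The reference used here was the 15 min libraries, which were already labelled, and not no4sU. In 14 of the 46 members the old part in both 120 min libraries was above the whole level in both 15 min libraries, which held for 4.85% of 9065 genes, and in 21 it was below (85.4%). Fn1 had an old part of 7667 and 7363 CPM at 120 min and a whole level of 6642 and 6609.7 CPM at 15 min. Bgn had 2144 and 2032 against 1830.0 and 1802, and Sparc 769 and 754 against 742 and 751. The others were Col6a1, Col6a2, Col12a1, Fbln2, Fbln5, Dcn, Mgp, Postn, Plod1, Plod3 and Timp1. The old part was also above both no4sU libraries for Fn1, Bgn, Col6a1, Col6a2, Col12a1, Fbln2, Fbln5, Dcn, Postn and Plod1. For Sparc, Timp1 and Plod3 both old parts at 120 min were above no4sU replicate B. They were below replicate A, at 772, 204 and 196 CPM. For Mgp the mean old part was 14.9 CPM (SD 2.15), against a mean of 14.2 CPM in no4sU. For Thbs1 the old part went from 1174 and 1235 CPM at 15 min to 761 and 813 at 60 min and 317 and 316 at 120 min, and for Adamts1 from 80.3 and 83.7 to 32.5 and 33.4 and 0.229 and 0.272. The Adamts1 values at 120 min rest on an NTR at the top of its range. The authors' intervals reached down to an NTR of 0.941 in each library. The old part of Adamts1 at 120 min may thus be larger, and the size of its fall is uncertain.

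The direction of a member went with its share of new RNA, as it did for other genes. Of the 12 members with an NTR below 0.1 at 120 min, 12 rose, with a median of 0.14 per hour. Of all 375 genes in that range 80.0% rose, with a median of 0.13. Between 0.1 and 0.2, 17 of 19 members rose (61.0% of all genes), and the medians were 0.10 and 0.09. Between 0.2 and 0.3, 3 of 11 rose and 1 fell (25.1% and 2.22% of all genes), with medians of 0.04 and 0.05. The 3 members above 0.5 all fell (56.4% of all genes), with a median of -0.20 against -0.12. Across the 46 members Spearman's rho between trend and NTR was -0.728, and across all 9065 genes it was -0.778. Both are descriptions across genes, which share the same libraries and are not independent.

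**Figure D4:**
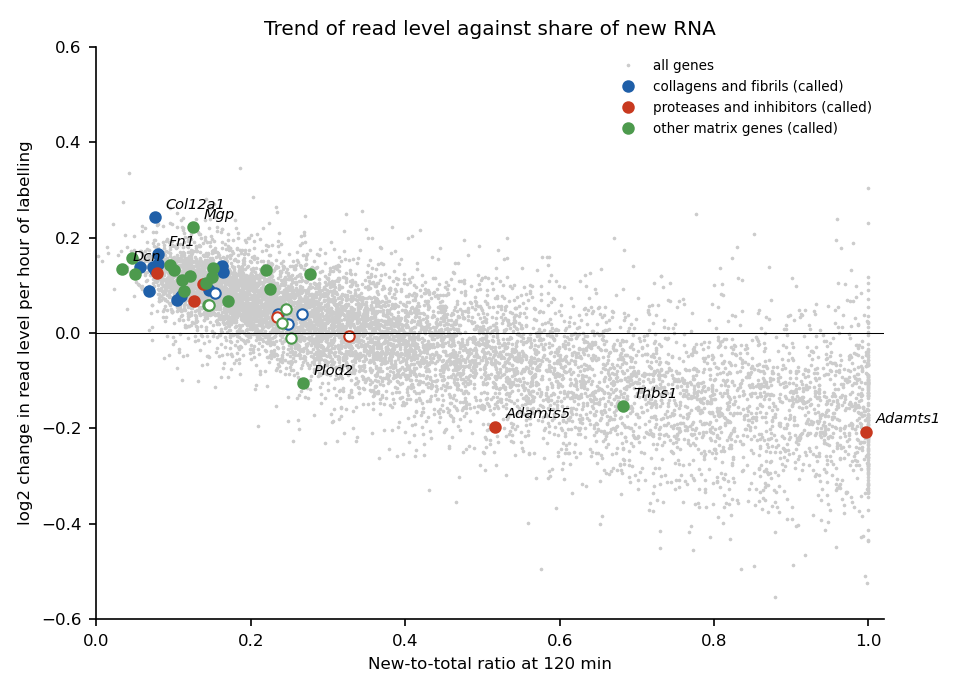
Trend of the read level (vertical axis, log2 change per hour over the 10 labelled libraries) against the new-to-total ratio at 120 min (horizontal axis, fraction). Grey points are all genes, large points the 46 matrix genes by class, filled where the edgeR adjusted p is below 0.05; matrix genes with a ratio below 0.2 lie above 0, and Thbs1, Adamts5 and Adamts1 below it. The axis leaves out 3 genes.

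Matrix genes outside the list were examined with 4 further lists in the same trend test, where 18.3% of 11526 genes rose and 19.5% fell. Of 9 other collagens with enough reads 3 rose and 0 fell. Col4a5 rose by 0.16 per hour, Col16a1 by 0.15 and Col4a6 by 0.11, and their NTR at 120 min was 0.0910, 0.0540 and 0.0513. Of 35 other matrix glycoproteins and proteoglycans 18 rose, led by osteoglycin (Ogn) at 0.34, Tnxb at 0.28 and osteopontin (Spp1) at 0.28, and 1 fell, Mfap3 at -0.23 with an NTR of 0.895. Among 26 genes of collagen folding and export 13 rose, led by Pcolce, an enhancer of procollagen cleavage, at 0.20, P3h3 at 0.19 and Fkbp14 at 0.18. The 1 that fell was Creb3l2, a transcription factor of the secretory pathway, at -0.16 with an NTR of 0.653.

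Of 31 other proteases and inhibitors tested, 9 rose and 3 fell (18.3% and 19.5% of all 11526 genes). The rises were led by Adamts7 at 0.20, Serpinf1 at 0.18 and Adamts10 at 0.15. Among the falls, Adam19 fell by 0.20 per hour with an NTR of 0.771, and the urokinase gene Plau fell by 0.20 per hour with an NTR of 0.765. All of these passed at an adjusted p below 0.05 in the same fit over all genes.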

How the data were processed

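RNA of 12 NIH-3T3 libraries was sequenced after 4sU labelling. The deposited table gives estimated counts per gene and library, unscaled and 20.4% of them not whole, and NTR as a fraction with its mean and quantiles, per the file headers; parameters of its distribution, deposited as a score without range, were not used. Cutadapt, Bowtie2 2.3.0 and STAR 2.7.10b are named, per the submitters' processing notes; for build, annotation, counter and strand use, the sources used here give none. Counts were rounded, filtered with filterByExpr, scaled by TMM and tested with edgeR 4.0.16 (R 4.3.3; quasi-likelihood, Benjamini-Hochberg over all genes tested, threshold 0.05). All 12 libraries entered the group contrasts, the 10 labelled ones the trend. Turnover rates were tested with limma 3.58.1 over the 8 libraries from 30 min on. DESeq2 1.42.0 was an alternative. Levels per kilobase used the deposited length, and NTR measures needed a mean count of at least 100. The 3′ UTRs and positions came from GENCODE M21 on GRCm38.

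On simulated counts, the trend test recovered 54.5% of 200 genes changed 1.2-fold by 120 min (11515 genes tested) and 98% of 200 changed 1.5-fold (11519 tested). For 120 against 15 min it was 42% at 1.2-fold (11539 tested), so changes of that size were often missed. The simulated spread was 1 value for all genes, lower than the 4.44% of the fit over all 12 libraries. The 42% may therefore be too high for that contrast. Of the simulated calls at 1.2-fold, 6.67% were false for 120 against 15 min and 2.68% for the trend. The members and lists were chosen with earlier results of these data known. Values in every library were given for the 12 called members with the largest change from 15 to 120 min, the 4 highest and 4 lowest in NTR at 120 min, and Col1a1, Col1a2, Col3a1, Fn1, Sparc, Timp1, Timp2, Timp3, Mmp2 and Mmp14. From other lists, called genes with the 3 largest rises and 3 largest falls were named, except where a result is not reported here.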

Additional observations from a re-analysis of the deposited data

How the results depend on the processing

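Libraries of 9917026 to 13739380 reads and 2 libraries a group limit what each contrast can detect. The count of 24 members called for 120 against 15 min became 37 with only the 2 groups compared and 37 with the 10 labelled libraries, and 10 to 15 on leaving out 1 library. The 26 called for 120 min against no4sU became 17 with library size alone, 0 with only the 2 groups compared, and 9 to 31 on leaving out 1 library. The 36 called in the trend became 3 without the 90 and 120 min libraries and stayed between 29 and 37 under the other settings, leaving out 1 library included. Without the 90 and 120 min libraries the trend of 5 called members changed sign, to -0.0138 for Col1a1, -0.0158 for Postn, -0.0132 for Serpinh1, -0.0491 for Timp2 and -0.0282 for Mgp. The 3 called by turnover rate became 6 with a mean count of at least 1000, 0 with rates centred on the median gene and 0 without any 1 of the libraries at 60 or 120 min. The median NTR at 120 min became 0.128 with the 12 collagens only, against 0.107 for collagens and fibrils, and 0.132 with a mean count of at least 1000 or 0.193 with Bmp1 added, against 0.234 for proteases and inhibitors. Counts over all genes moved as well. For 120 against 15 min, 2228 of 11564 genes called became 3818 of 11351 with only the 2 groups compared. The 10 labelled libraries gave 3700 of 11526. By turnover rate, 1077 of 7830 genes became 818 of 2576 with a mean count of at least 1000, where 31 members were tested. The cause of these differences was not tested. Replicate letters did not pair the libraries (correlations of their deviations from -0.0364 to 0.0744). With replicate as a block 25, 27, 37 and 2 members were called in the 4 tests. Over all genes 2315, 1737, 4447 and 480 were called.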
